A study of Homo sapiens with 12 samples.

Results

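This report describes what medium conditioned by M2 macrophages did to RNA levels in MV3 cells, an established melanoma cell line of human origin, first grown from a metastasis in a lymph node. The comparison takes 6 of the 12 samples of the study, the 3 kept in M2 medium (M2) and the 3 kept in fresh medium (Ctrl), chosen by their labels. MV3 cells grown with 10% serum were held for 3 h in RPMI with 1% serum and then spent 24 h in the test medium, and this history was shared by all samples. M2 medium came from cells of the THP-1 monocyte line that had been turned into macrophages with a phorbol ester (PMA) and polarized with interleukin 4 and interleukin 13. Ctrl medium was RPMI that no cell had conditioned. The other 6 samples received medium of THP-1 macrophages that were not polarized (M0) or were polarized with lipopolysaccharide and interferon gamma (M1), and they enter here where M2 is set beside them. The difference between M2 and Ctrl therefore holds conditioning as such, including what the macrophages had used up, together with what they had secreted. Carry-over of interleukin 4, interleukin 13 or PMA in the medium was not measured. Nothing in the labels says that the replicates were separate cultures. The p-values therefore measure only how samples spread within groups, estimated over all 12 samples together, and that spread may be technical.

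Macrophages polarized with interleukin 4 and interleukin 13 are studied as a model of the cells that support wound repair and, in tumours, matrix remodelling and growth factor supply. Conditioned medium carries secreted proteins to the tumour cells, and it also carries waste products and has lost nutrients. Cells that lack amino acids or meet stress in the endoplasmic reticulum make more of the transcription factor ATF4, which drives genes for amino acid synthesis and transport. Proliferating melanoma cells with active MAPK signalling express growth factor ligands and feedback phosphatases, and many also express matrix proteins.

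Total RNA was turned into stranded mRNA libraries and read as single reads of 50 nt. The libraries held 36527984, 27938253 and 27934789 counts in M2 replicates 1, 2 and 3, and 42921242, 28706025 and 30592714 counts in Ctrl replicates 1, 2 and 3. A count of 0 in a single library allows up to 3 counts, which is 0.0699 to 0.1074 CPM (counts scaled to library size), and such limits cover counting error only. M2 replicate 2 carried a trace of diffuse reads. In this library 3759 genes held reads and were empty in all others, against 160 to 453 such genes in each of the other 11 libraries. These genes held 4889 reads in all, 0.017% of the library, with at most 8 reads (0.286 CPM) on a gene. Ctrl replicate 1 stood apart from its group, with 1.46% of 11745 genes at least 1.5-fold away from both other Ctrl libraries, against 0.245% to 0.582% in the other 5 libraries. Of 16 genes listed to check the identity of the line, 8 were expressed at tested levels, among them VIM, PRAME, CSPG4, NES, MCAM and MITF. The pigment cell genes PMEL, MLANA, TYR and DCT and the neural crest genes SOX10 and S100B had 0 to 5 reads per group. Other genes of the pigment cell lineage were expressed, such as GPR143, at 75.6, 79.6 and 81.2 CPM in M2 and 74, 69.2 and 67.1 CPM in Ctrl, and PAX3, at 24.3, 28.3 and 26.8 CPM in M2 and 18.5, 19.9 and 19.7 CPM in Ctrl. Of 28 macrophage markers, 3 passed the filter on low counts. The scavenger receptor gene MSR1 was higher in M2 (58 reads in M2 and 19 in Ctrl, log2 fold change 1.79, adjusted p = 0.000709), CORO1A was lower (48 reads in M2 and 171 in Ctrl, log2 fold change -1.66), and CD33 did not pass (57 reads in M2 and 77 in Ctrl). The other 25 had at most 10 reads in M2 and 27 in Ctrl, among them TYROBP, AIF1, SPI1 and FCGR3A with 0 in both groups. The 28 together took 0.000219% to 0.000265% of reads in M2 and 0.000352% to 0.000396% in Ctrl, and their part in the results was not tested.

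In M2 medium the MV3 cells had more RNA for amino acid stress genes, for the growth factors INHBE, GDF15, AREG and EREG, and for tenascin C and interstitial collagenase, and less RNA for mitotic and replication genes, heat shock proteins, SPARC and the signalling inhibitor RGS4. Of 14088 genes tested, 9370 (66.5%) passed an adjusted p of 0.05, 4805 of them higher in M2 (34.1%) and 4565 lower (32.4%). Calls of at least 2-fold numbered 1468 higher (10.4%) and 1313 lower (9.32%). The 3 M2 libraries did not overlap the 3 Ctrl libraries for 10078 genes (71.5%). The median log2 fold change over all genes tested was 0.02. A call by itself is therefore common in this comparison, and each gene group below is read against about 1 gene in 3 called in each direction. Fold changes are M2 over Ctrl, log2 fold changes carry a standard error (SE) from the spread of the 3 and 3 libraries, and CPM are given in the order of replicates 1, 2 and 3. CPM are not corrected for gene length, so they are read between groups and not as differences in level between genes. In bulk samples, fewer cells of a type and less RNA per cell cannot be told apart.

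**Figure D1:**
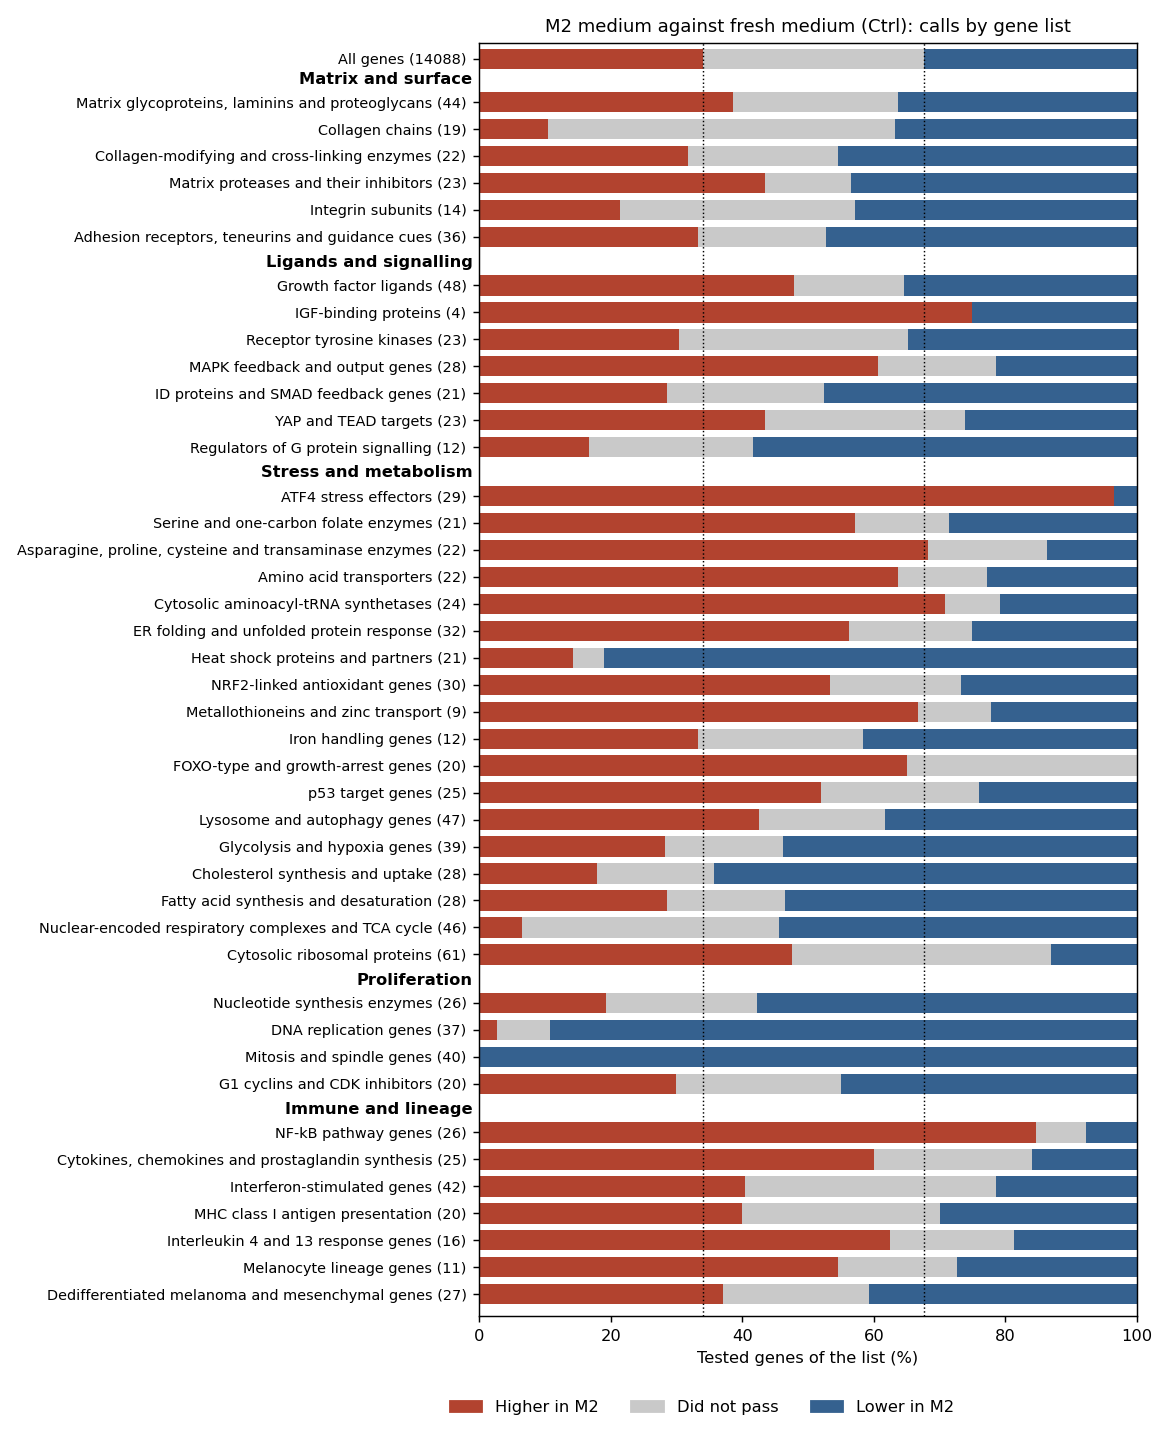
The bars show, for all 14088 genes tested (top) and for 42 gene lists, the percentage of tested members that were higher in M2 (red), did not pass (grey) or were lower in M2 (blue) at an adjusted p of 0.05; the number tested is in brackets and dotted lines mark the shares over all genes, 34.1% higher and 32.4% lower. The ATF4 list has 28 of 29 members in red and the mitosis list 40 of 40 in blue.

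Genes of the extracellular matrix moved in both directions. Of 44 tested matrix glycoproteins, laminins and proteoglycans, 17 rose and 16 fell, with 9 and 7 of at least 2-fold and a median log2 fold change of -0.07, close to 0.02 over all genes. TNC, which encodes the anti-adhesive matrix protein tenascin C (GRCh38, chr9:115019578-115118257, minus strand), had 751, 597 and 649 CPM in M2, against 73.7, 66.8 and 69.7 CPM in Ctrl. Every M2 library lay far above every Ctrl library, and the level was 9.5-fold higher (log2 fold change 3.25, SE 0.11, adjusted p = 2.92e-12). TNC overlaps DEC1 on the opposite strand, and reads of such pairs cannot be told apart here because the strand setting of the counts is not known. CTGF, the connective tissue growth factor also called CCN2, had 700, 704 and 746 CPM in M2 and 117, 90.1 and 93.2 CPM in Ctrl, a rise of 2.84 (SE 0.12, adjusted p = 8.8e-12). FN1, which encodes fibronectin, rose less, with 4608, 4589 and 4730 CPM in M2 and 3243, 3280 and 3230 CPM in Ctrl (log2 fold change 0.51, SE 0.02, adjusted p = 2.81e-05). LAMA3, a laminin chain of epithelial basement membranes, rose by 1.24 on the log2 scale from a low level, with 2.28, 2.87 and 2 CPM in M2 and 1.12, 0.67 and 1.19 CPM in Ctrl.

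SPARC, a collagen-binding matricellular protein, showed the opposite pattern, with 295, 317 and 293 CPM in M2, against 1923, 1510 and 1543 CPM in Ctrl. No library of M2 reached a Ctrl library, and the log2 fold change was -2.46 (SE 0.12, adjusted p = 2.96e-12). SRPX2, a secreted protein with sushi domains, stood at 1.17, 0.816 and 0.715 CPM in M2 and at 4.5, 3.62 and 3.88 CPM in Ctrl (log2 fold change -2.13). MATN2, a matrilin of filamentous matrix, had 5.7, 5.53 and 3.9 CPM in M2 and 22.9, 20.6 and 18.7 CPM in Ctrl (log2 fold change -2.03). NID2, a nidogen that links laminin to collagen IV, fell by 1.83 on the log2 scale.

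Few collagen chains were higher. Of 19 tested chains of 40 listed, 2 rose and 7 fell, 0 and 3 of them by at least 2-fold, with a median of -0.24. Over all genes tested 34.1% were called higher and 32.4% lower. The share of chains that fell was thus near that of all genes, and the share that rose was below it. COL1A1, a chain of the fibrillar type I collagen, had 466, 398 and 445 CPM in M2 and 819, 602 and 670 CPM in Ctrl (log2 fold change -0.68, SE 0.15, adjusted p = 0.00161). COL8A1, a short-chain collagen of vessel walls, had 24.1, 14.8 and 16.8 CPM in M2 and 56.2, 51.4 and 52.1 CPM in Ctrl, a log2 fold change of -1.51. Both genes had their M2 libraries wholly below the Ctrl libraries. The chains that rose were COL6A2 and COL6A3 of the beaded-filament collagen VI, with log2 fold changes of 0.47 (adjusted p = 0.00916) and 0.46 (adjusted p = 0.00569). Of 22 collagen-modifying and cross-linking enzymes, 7 rose and 10 fell, and the number that rose was 4 without M2 replicate 2 and 3 without Ctrl replicate 2. P4HA1, a prolyl hydroxylase that acts on collagen, had 40, 41.5 and 42.1 CPM in M2 and 99.6, 82.8 and 78.5 CPM in Ctrl (log2 fold change -1.08). LOX and LOXL4, which oxidize lysines to cross-link collagen and elastin, rose by 0.52 and 2.13 on the log2 scale, LOXL4 at 1.46, 1.92 and 1.47 CPM in M2 and 0.251, 0.469 and 0.407 CPM in Ctrl.

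Matrix proteases and their inhibitors split evenly in number, with 10 higher and 10 lower of 23 tested, but 6 of the rises and 2 of the falls were at least 2-fold (median 0.31). MMP1, the interstitial collagenase, had 36.2, 25.3 and 30.1 CPM in M2, against 1.55, 1.51 and 1.75 CPM in Ctrl. All M2 libraries were above all Ctrl libraries, and the log2 fold change was 4.25 (SE 0.16, adjusted p = 1.24e-12). MMP1 overlaps the noncoding gene WTAPP1. MMP3, the protease stromelysin, rose less evenly, with 16.5, 6.63 and 8.76 CPM in M2 and 4.61, 3.82 and 4.1 CPM in Ctrl (log2 fold change 1.36, SE 0.40, adjusted p = 0.00269). In the plasminogen system an inhibitor rose and an activator fell. SERPINB2, an inhibitor of plasminogen activators, had 287, 177 and 197 CPM in M2 and 56.4, 65 and 62.5 CPM in Ctrl (log2 fold change 1.85). The tissue plasminogen activator gene PLAT stood at 45.4, 39.3 and 39.6 CPM in M2 and at 210, 160 and 167 CPM in Ctrl (log2 fold change -2.11). TIMP2, an inhibitor of matrix metalloproteases, fell by 1.06 on the log2 scale, with 171, 190 and 185 CPM in M2 and 427, 355 and 359 CPM in Ctrl.

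Integrin subunits, the receptors for these matrix proteins, had 3 higher and 6 lower of 14 tested, 2 and 4 of them by at least 2-fold. ITGB3, the beta subunit of the vitronectin receptor, had 2.52, 3.33 and 3.29 CPM in M2 and 0.502, 0.335 and 0.344 CPM in Ctrl (log2 fold change 2.89). ITGA11, a collagen receptor subunit, had 88.7, 89 and 90.3 CPM in M2 and 43.7, 31.3 and 37.2 CPM in Ctrl (log2 fold change 1.25). The collagen receptor subunit ITGA2 went the other way, at 158, 128 and 146 CPM in M2 and 443, 339 and 316 CPM in Ctrl (log2 fold change -1.34). ITGB8, ITGA4 and ITGA6 had log2 fold changes of -1.96, -1.24 and -1.11. Without Ctrl replicate 1 the integrin counts were 5 higher and 4 lower.

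**Figure D2:**
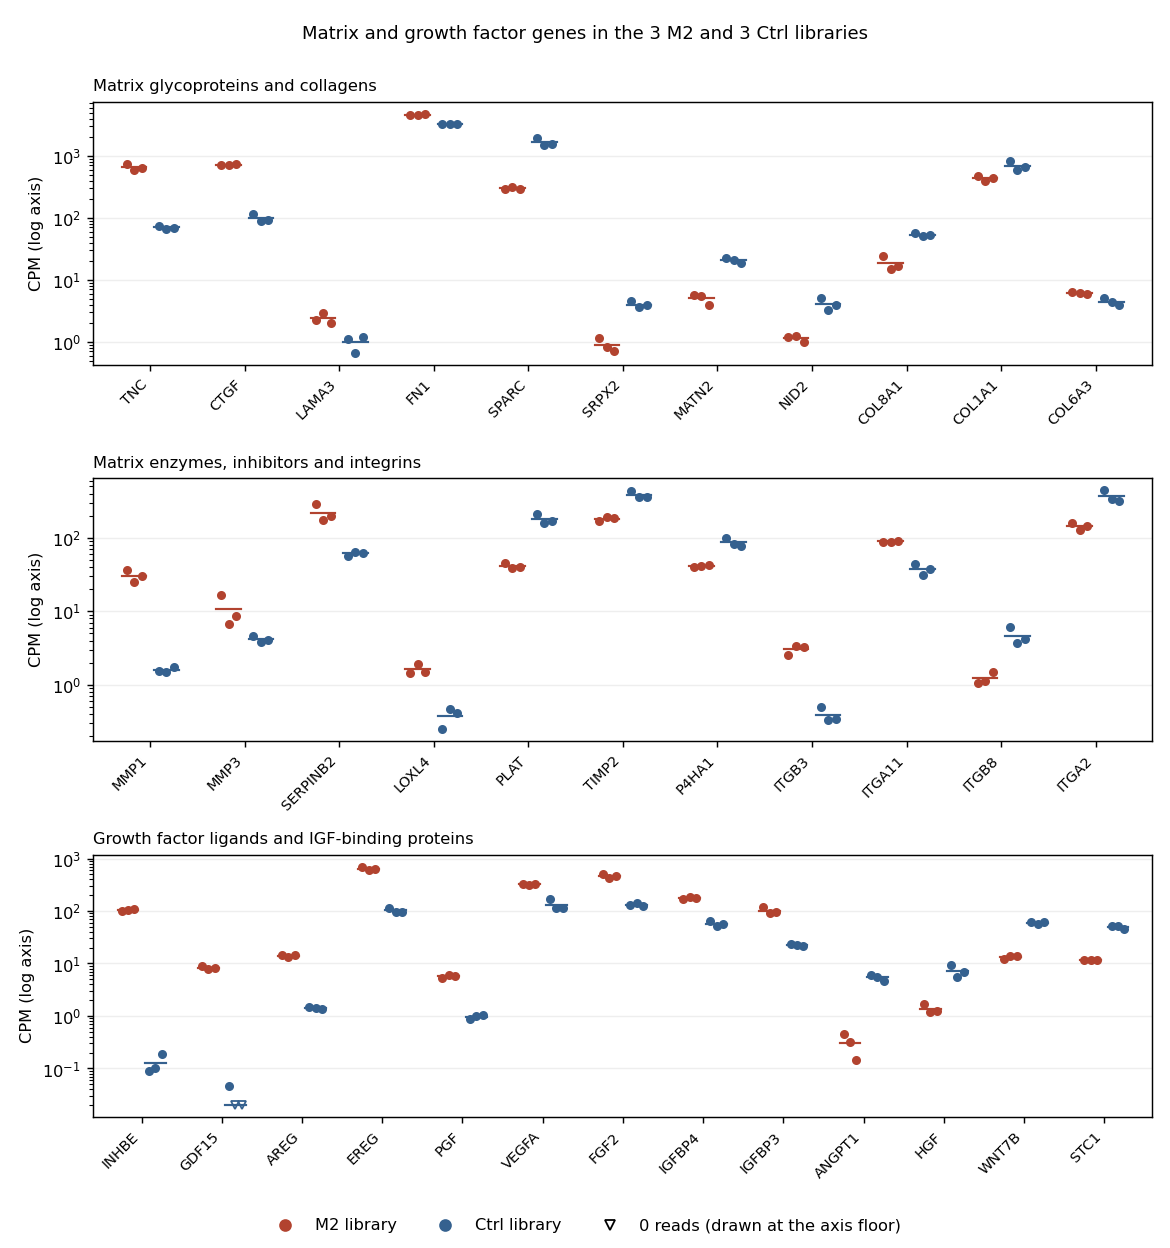
Each point is a library, with M2 (red) to the left of Ctrl (blue) for each gene, bars at the mean of 3, and CPM on a log axis in 3 panels for matrix proteins, matrix enzymes with integrins, and growth factors; open triangles are libraries with 0 reads. INHBE has the widest gap, 97.9 to 110 CPM in M2 and 0.0913 to 0.188 CPM in Ctrl, while FN1 differs by a log2 fold change of 0.51.

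Growth factor ligands were more often higher than lower, and several with almost no reads in Ctrl were clearly expressed in M2. Of 48 tested of 66 listed, 23 rose and 17 fell, 16 and 7 of them by at least 2-fold, and the median log2 fold change was 0.39 against 0.02 over all genes. INHBE, which encodes the activin beta E chain (GRCh38, chr12:57452323-57459280, plus strand), had 97.9, 103 and 110 CPM in M2, against 0.0913, 0.1 and 0.188 CPM in Ctrl. The gene was near the detection floor in all Ctrl libraries and far from it in all M2 libraries, and the log2 fold change was 9.67 (SE 0.23, adjusted p = 3.54e-14). GDF15, a stress-induced member of the TGF-beta family, had 782 reads in the 3 M2 libraries and 2 in the 3 Ctrl libraries, a ratio of 444 (95% interval 123 to 3673, counting error only). FGF21, an endocrine fibroblast growth factor that ATF4 can drive, had 94 reads in M2 and 2 in Ctrl, a ratio of 53.4 (95% interval 14.4 to 447).

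Among ligands of the EGF receptor family, AREG, EREG and NRG1 rose, and the neuregulin gene NRG2 fell by 0.97 on the log2 scale. AREG (amphiregulin) had 14.8, 13.3 and 14.5 CPM in M2 and 1.51, 1.41 and 1.34 CPM in Ctrl (log2 fold change 3.31, SE 0.07, adjusted p = 2.27e-10). EREG (epiregulin) had 703, 602 and 624 CPM in M2 and 116, 96 and 96.7 CPM in Ctrl (log2 fold change 2.64, SE 0.11, adjusted p = 1.33e-10). NRG1 (neuregulin, a ligand of ERBB3 and ERBB4) had 214, 161 and 186 CPM in M2 and 52.3, 43.8 and 41.5 CPM in Ctrl (log2 fold change 2.02). For each of the 3 genes every M2 library was above every Ctrl library. EREG, NRG1, PGF, FGF2, JAG1, LAMA3, TIMP2, DUSP6, DDIT4, ATF3, DDIT3, ATF4, CEBPG, PHGDH, SHMT2, MT2A, MT-ND4, CA9, MKI67, CISH, SERPINB3, SERPINB4 and the markers of the line and of macrophages fell outside the rule for named genes and were chosen after their values were seen.

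Ligands that act on vessels diverged. VEGFA, the main vascular endothelial growth factor, had 333, 312 and 324 CPM in M2 and 168, 114 and 113 CPM in Ctrl (log2 fold change 1.29, SE 0.19, adjusted p = 9.31e-08). PGF, the placental growth factor of the same family, had 5.32, 5.96 and 5.69 CPM in M2 and 0.868, 1 and 1.06 CPM in Ctrl (log2 fold change 2.54). FGF2, the basic fibroblast growth factor, had 499, 425 and 466 CPM in M2 and 132, 139 and 127 CPM in Ctrl (log2 fold change 1.81). JAG1, a Notch ligand, rose by 1.78 on the log2 scale, and STC2, a secreted glycoprotein induced by cell stress, by 2.37. ANGPT1, which encodes the vessel-stabilizing ligand angiopoietin 1, stood at 0.461, 0.319 and 0.143 CPM in M2, against 6.05, 5.63 and 4.72 CPM in Ctrl (log2 fold change -4.08, SE 0.41, adjusted p = 9.48e-08). HGF, the ligand of the receptor MET, had 1.68, 1.17 and 1.25 CPM in M2 and 9.25, 5.43 and 7 CPM in Ctrl (log2 fold change -2.39, SE 0.27, adjusted p = 2.11e-06). MET itself fell by 1.2 on the log2 scale, with 202, 194 and 201 CPM in M2 and 538, 428 and 408 CPM in Ctrl. WNT7B, STC1 and TGFB3 had log2 fold changes of -2.18, -2.10 and -1.59, so STC1 and its relative STC2 moved in opposite directions.

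The IGF-binding proteins, which hold insulin-like growth factors in the extracellular space, had 3 higher and 1 lower of 4 tested. IGFBP4 had 170, 181 and 180 CPM in M2 and 65.4, 52.5 and 55.5 CPM in Ctrl (log2 fold change 1.61, SE 0.10, adjusted p = 2.12e-08). IGFBP3 had 119, 90.2 and 95.1 CPM in M2 and 23.4, 22.3 and 21.5 CPM in Ctrl (log2 fold change 2.18). IGFBP6 had a log2 fold change of -0.50 and an adjusted p of 0.00192. PAPPA2, a protease that cleaves IGF-binding proteins, rose by 6.78 (SE 0.16, adjusted p = 6.72e-13) and had 420, 482 and 499 CPM in M2, against 5.07, 3.72 and 3.81 CPM in Ctrl. Receptor tyrosine kinases had 7 higher and 8 lower of 23, about the shares of all genes. The insulin receptor gene INSR had 13.2, 15.9 and 16.5 CPM in M2 and 6.71, 4.79 and 5 CPM in Ctrl (log2 fold change 1.45), and the ephrin receptor gene EPHA7 fell by 2.59 on the log2 scale.

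Genes that MAPK signalling switches on rose in 17 of 28 tested and fell in 6, with 10 and 1 of at least 2-fold and a median of 0.57. EGR1, an immediate early transcription factor, had 74.8, 70.3 and 75.2 CPM in M2, against 6.83, 6.43 and 6.1 CPM in Ctrl (log2 fold change 3.5, SE 0.06). DUSP5 and DUSP6, phosphatases that switch off ERK, rose by 2.2 and 1.5, and MYC rose by 1.66, with 235, 210 and 227 CPM in M2 and 72.3, 70.1 and 70.4 CPM in Ctrl. The 6 that fell were ETV1, JUN, SPRY2, DUSP4, CCND1 and SPRED1, with log2 fold changes of -1.01, -0.55, -0.38, -0.34, -0.24 and -0.17. The calls of DUSP4, CCND1 and SPRED1 were lost on leaving out some single libraries. Genes of the BMP and SMAD feedback loop had 6 higher and 10 lower of 21. The BMP targets ID1, ID3 and SMAD6 fell by 1.79, 1.45 and 2.03 on the log2 scale, ID1 at 7.54, 5.5 and 6.15 CPM in M2 and 21.3, 21.4 and 24.3 CPM in Ctrl. The 6 that rose were LDLRAD4, TGIF1, LTBP1, SMAD7, PMEPA1 and SKIL, by 5.55, 1.63, 1.31, 0.71, 0.65 and 0.46. LDLRAD4 was low, with 99 reads in M2 and 2 in Ctrl. Of 23 tested YAP and TEAD targets, 10 rose and 6 fell, led by CTGF, GADD45A and IGFBP3, each also a target of other pathways.

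Among the 43 lists, the ATF4 effectors had the highest share of members called higher. Of 29 tested ATF4 effectors, 28 rose, all 28 by at least 2-fold, and 1 fell, with a median log2 fold change of 3.69. The list took 1.33%, 1.25% and 1.27% of all reads in M2, against 0.203%, 0.181% and 0.189% in Ctrl. ATF4 itself had 453, 439 and 429 CPM in M2 and 55.8, 71.6 and 81.2 CPM in Ctrl (log2 fold change 2.66, SE 0.16, adjusted p = 9.19e-12). CHAC1, which degrades glutathione, had 96.5, 82.7 and 92.2 CPM in M2, against 0.708, 0.536 and 0.782 CPM in Ctrl (log2 fold change 7.05, SE 0.16, adjusted p = 3.94e-14). SESN2, a leucine sensor upstream of the kinase mTORC1, had 416, 407 and 419 CPM in M2 and 6.69, 5.33 and 4.94 CPM in Ctrl (log2 fold change 6.18, SE 0.13, adjusted p = 7.41e-16). In all 3 genes the groups were wide apart. NUPR1, a stress-induced chromatin protein, rose by 6.50, with 202, 220 and 219 CPM in M2 and 1.87, 2.61 and 2.72 CPM in Ctrl. The mTORC1 inhibitor DDIT4, the pseudokinase TRIB3 and the transcription factors ATF3 and DDIT3 rose by 5.15, 4.77, 4.16 and 3.69. Many of these rises were not particular to M2 medium. In the test of M2 against M0, SESN2, CHAC1, DDIT4 and DDIT3 did not pass (adjusted p = 0.98, 0.542, 0.612 and 0.934). Neither did PSAT1, CTH and SLC7A11 of the list (0.438, 0.463 and 0.934). INHBE, TRIB3, ALDH1L2, NUPR1, JDP2 and ATF3 did pass (0.0002, 0.00565, 0.00248, 0.0173, 0.00697 and 0.0216). The member that fell was ATF5, a further transcription factor of this family, at 60.1, 67 and 67.5 CPM in M2 and 66.6, 78.2 and 77.7 CPM in Ctrl (log2 fold change -0.19, adjusted p = 0.0492), where the groups overlapped. This call was lost on leaving out any of 5 of the 6 libraries, all but Ctrl replicate 1, with adjusted p of 0.0577 to 0.195.

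ATF4 binds, together with C/EBP proteins, to sites of the form TGATGNAA. The 250 bases before the start of 4 genes of the list that hold this motif are shown because these genes rose together and the motif sits at a different distance in each. The sequences are RefSeq's on GRCh38.p14, written 5′ to 3′ on the strand of the gene, with the motif in capitals.
CHAC1: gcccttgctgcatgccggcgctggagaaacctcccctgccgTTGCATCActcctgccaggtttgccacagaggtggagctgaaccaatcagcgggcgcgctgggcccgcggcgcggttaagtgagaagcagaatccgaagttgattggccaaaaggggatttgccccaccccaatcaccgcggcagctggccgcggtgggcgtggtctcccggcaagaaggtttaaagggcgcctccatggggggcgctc
ASNS: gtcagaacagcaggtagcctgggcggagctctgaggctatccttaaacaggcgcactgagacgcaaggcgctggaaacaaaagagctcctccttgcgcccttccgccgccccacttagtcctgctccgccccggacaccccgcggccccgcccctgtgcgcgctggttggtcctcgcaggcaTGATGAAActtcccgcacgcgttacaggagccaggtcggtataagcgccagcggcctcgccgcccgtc
ATF3: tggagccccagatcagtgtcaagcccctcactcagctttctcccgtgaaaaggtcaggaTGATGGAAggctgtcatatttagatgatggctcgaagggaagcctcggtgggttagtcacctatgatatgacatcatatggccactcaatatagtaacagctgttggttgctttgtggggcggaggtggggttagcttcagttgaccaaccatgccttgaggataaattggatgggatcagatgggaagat
CEBPG: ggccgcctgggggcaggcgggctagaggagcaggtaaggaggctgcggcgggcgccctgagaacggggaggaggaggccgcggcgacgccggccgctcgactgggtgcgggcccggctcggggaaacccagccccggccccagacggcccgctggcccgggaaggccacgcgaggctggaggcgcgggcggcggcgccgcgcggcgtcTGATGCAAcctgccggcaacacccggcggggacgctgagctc
They lie at chr15:40953221-40953470 (plus strand), chr7:97872409-97872658 (minus strand), chr1:212565157-212565406 (plus strand) and chr19:33373863-33374112 (plus strand). The match spans bases 209 to 202 before the start in CHAC1, where it reads TTGCATCA and so lies on the opposite strand, 68 to 61 in ASNS, 191 to 184 in ATF3 and 42 to 35 in CEBPG. TGATGNAA was searched on both strands, as TTNCATCA on the other, over the 250 bases before the start. Where a gene had several starts it counted if any of them matched, and the first start with a match is shown. It occurred in 6 of the 24 ATF4 list genes that matched the promoter table (25%), also in FGF21 and JDP2, and in 1061 of all 27305 genes (3.89%). The ATF4 list was made of genes already named as ATF4 effectors, so its share is no independent test. Of the other amino acid lists the motif occurred in 3 of 18 synthesis enzymes (16.7%), among them ASNS, which is also on the ATF4 list. It occurred in 3 of 19 tRNA synthetases (15.8%), 2 of 22 transporters (9.09%) and 1 of 18 serine and folate enzymes (5.56%). A match describes these letters and is no proof of a binding site, and its absence from this window says nothing about the factor.

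The asparagine synthetase gene ASNS, whose promoter is shown above, had 15, 15.9 and 15.3 CPM in M2, against 0.434, 0.301 and 0.188 CPM in Ctrl (log2 fold change 5.57, SE 0.29, adjusted p = 4.57e-11). ATF3 stood at 40, 40.3 and 40 CPM in M2 and at 2.44, 2.11 and 2.1 CPM in Ctrl. CEBPG, a partner of ATF4, had 333, 324 and 323 CPM in M2 and 73.3, 72.4 and 69.8 CPM in Ctrl (log2 fold change 2.19). In none of these genes did a Ctrl library reach an M2 library. Of 21 serine and folate enzymes, 12 rose and 6 fell, 8 and 4 by at least 2-fold. Among those that rose were genes of serine synthesis and of the mitochondrial folate branch. PSAT1, the serine synthesis transaminase, had 1175, 1235 and 1227 CPM in M2 and 106, 105 and 108 CPM in Ctrl (log2 fold change 3.51, SE 0.02, adjusted p = 2.65e-15). PHGDH and PSPH, the other enzymes of that pathway, rose by 2.21 and 2.23. MTHFD2, SHMT2 and ALDH1L2 of the mitochondrial branch rose by 2.95, 2.06 and 3.25, MTHFD2 with 690, 674 and 670 CPM in M2 and 84.4, 90.7 and 87.6 CPM in Ctrl. Among those that fell were TYMS and SHMT1. TYMS, the thymidylate synthase, had 43.6, 34.9 and 36 CPM in M2 and 224, 242 and 255 CPM in Ctrl (log2 fold change -2.65, SE 0.11, adjusted p = 5.48e-08), and SHMT1 fell by 1.27. MAT2A, which makes the methyl donor S-adenosylmethionine, fell by 1.35.

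Further amino acid genes followed. Enzymes for asparagine, proline, cysteine and transamination had 15 higher and 3 lower of 22, with 10 of the rises and 0 of the falls at least 2-fold. CTH, which makes cysteine from cystathionine, had 129, 125 and 126 CPM in M2, against 2.81, 2.58 and 2.91 CPM in Ctrl (log2 fold change 5.51, SE 0.05, adjusted p = 7.41e-16). PCK2, the mitochondrial phosphoenolpyruvate carboxykinase, had 511, 457 and 480 CPM in M2 and 23.2, 18.7 and 19.5 CPM in Ctrl (log2 fold change 4.55). Amino acid transporters had 14 higher and 5 lower of 22, 12 and 1 by at least 2-fold, with a median of 1.27. The 12 include genes near the floor, SLC7A2 with 3 reads in M2 and 0 in Ctrl and SLC7A7 with 26 in M2 and 14 in Ctrl. SLC7A11, the cystine importer, had 418, 413 and 435 CPM in M2 and 33, 25.4 and 23.4 CPM in Ctrl (log2 fold change 3.95). SLC7A5, which imports leucine with SLC3A2, had 2044, 1918 and 1984 CPM in M2 and 387, 279 and 295 CPM in Ctrl (log2 fold change 2.63). SLC1A4 and SLC6A9, carriers of neutral amino acids and glycine, rose by 4.72 and 4.60, and SLC38A4 fell by 1.77. Of 24 aminoacyl-tRNA synthetases and their partners, 17 rose and 5 fell, with 8 rises and 0 falls of at least 2-fold. They took 1.18% of reads in every M2 library, against 0.519% to 0.524% in the Ctrl libraries. WARS, the tryptophan enzyme, had 1634, 1882 and 1835 CPM in M2 and 240, 250 and 251 CPM in Ctrl (log2 fold change 2.85), and QARS and VARS, the glutamine and valine enzymes, fell by 0.73 and 0.64.

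Genes of the unfolded protein response were higher in 18 of 32 tested and lower in 8, with 6 and 2 of at least 2-fold. HERPUD1, which helps degrade proteins of the endoplasmic reticulum, had 301, 329 and 313 CPM in M2 and 50.3, 46.6 and 45.2 CPM in Ctrl (log2 fold change 2.73). The co-chaperone DNAJB9, the sensor ERN1 and the transcription factor XBP1 rose by 2.67, 2.59 and 2.11. HSPA5, the main chaperone of this compartment, had 2082, 2231 and 2132 CPM in M2 and 931, 707 and 716 CPM in Ctrl (log2 fold change 1.45). CALR, the lectin chaperone calreticulin, fell, with 373, 385 and 369 CPM in M2 and 1015, 875 and 899 CPM in Ctrl (log2 fold change -1.31), and SDF2L1 fell by 1.33. Heat shock proteins and their partners, a list that also holds the mitochondrial chaperonins HSPD1 and HSPE1, were mostly lower, with 3 higher and 17 lower of 21, 1 and 10 by at least 2-fold, and a median of -0.91. They took 0.51%, 0.554% and 0.522% of reads in M2 and 1.18%, 1.24% and 1.24% in Ctrl. HSPA8, the constitutive chaperone of the HSP70 family, had 838, 1043 and 936 CPM in M2, against 3588, 3630 and 3696 CPM in Ctrl (log2 fold change -1.95, SE 0.09, adjusted p = 1.06e-09). HSP90AA1 had 1538, 1644 and 1542 CPM in M2 and 3767, 4005 and 3854 CPM in Ctrl (log2 fold change -1.30). HSPA1A fell by 3.03, but its counts are uncertain because HSPA1B is nearly identical. The members that rose were DNAJB2, HSF1 and DNAJB6, by 1.49, 0.50 and 0.45.

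**Figure D3:**
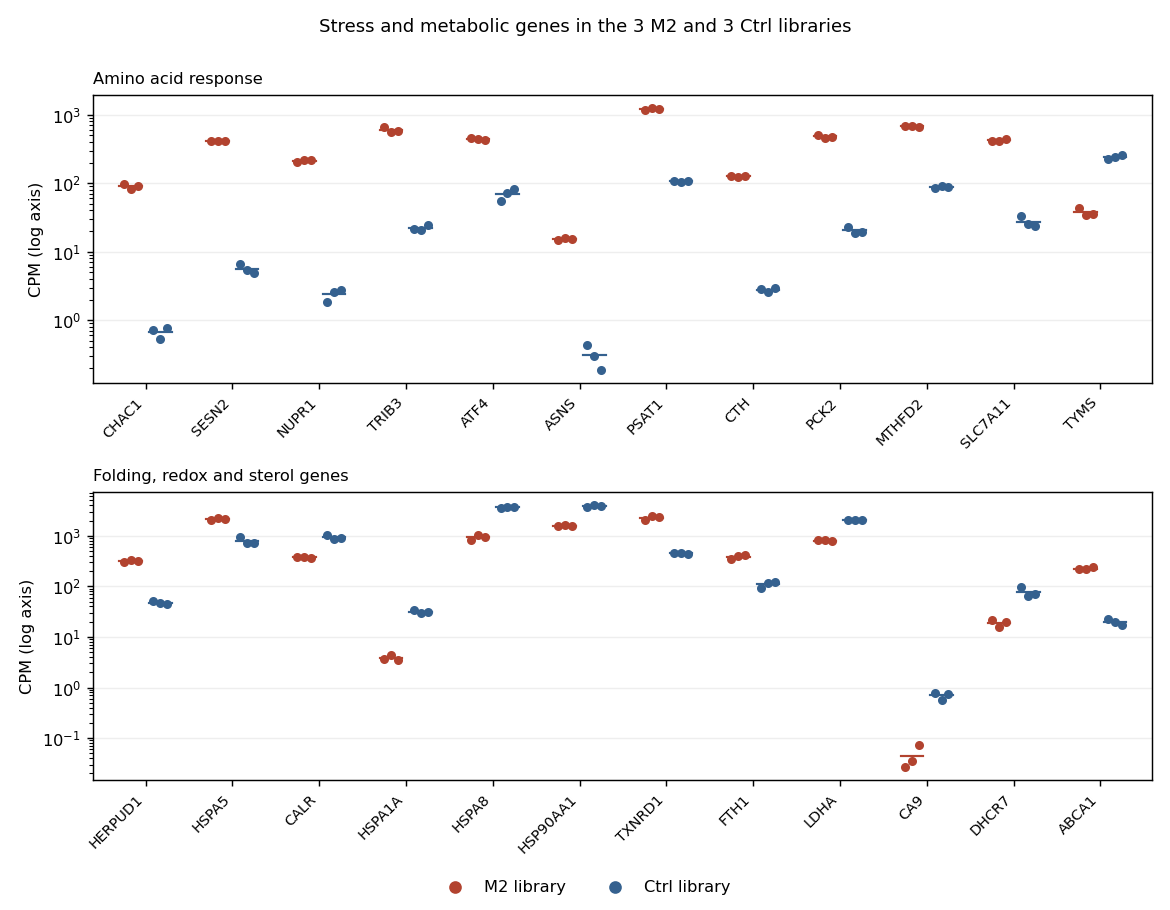
Each point is a library, with M2 (red) left of Ctrl (blue), bars at the mean of 3, and CPM on a log axis, for amino acid response genes in the upper panel and folding, redox, glycolytic and sterol genes in the lower panel. SESN2 sits at 407 to 419 CPM in M2 and 4.94 to 6.69 CPM in Ctrl, and HSPA8 is lower in all 3 M2 libraries.

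Antioxidant genes linked to the factor NRF2 rose in 16 of 30 and fell in 8, with 9 and 0 of at least 2-fold. TXNRD1, the cytosolic thioredoxin reductase, had 2031, 2426 and 2366 CPM in M2 and 460, 449 and 435 CPM in Ctrl (log2 fold change 2.35). The autophagy receptor SQSTM1 and the ferritin heavy chain FTH1 rose by 1.85 and 1.81. Both overlap other genes. Of 9 metallothionein and zinc transport genes, 6 rose and 2 fell. The metallothioneins MT1M and MT1X rose by 2.12 and 0.81, whereas MT2A did not pass (610, 571 and 585 CPM in M2 and 386, 497 and 539 CPM in Ctrl, log2 fold change 0.31, adjusted p = 0.0629). These metallothioneins are close paralogs and their counts are uncertain. The zinc importer SLC39A10 had 20.9, 19.7 and 21.6 CPM in M2 and 127, 97.4 and 95.4 CPM in Ctrl (log2 fold change -2.37). Iron handling genes were mixed, with 4 higher and 5 lower of 12. Genes known as FOXO or growth arrest targets rose in 13 of 20 and fell in 0. TXNIP, which binds thioredoxin and limits glucose uptake, had 164, 192 and 170 CPM in M2 and 16.7, 14.4 and 13.4 CPM in Ctrl (log2 fold change 3.56). TSC22D3, also a glucocorticoid target, had 71.7, 70.2 and 70.4 CPM in M2 and 4.77, 3.78 and 4.16 CPM in Ctrl (log2 fold change 4.05). Of 47 lysosome and autophagy genes, 20 rose and 18 fell. The autophagy genes GABARAPL1, MAP1LC3B and ULK1 rose by 2.83, 2.63 and 2.39, MAP1LC3B with 663, 629 and 638 CPM in M2 and 95, 110 and 107 CPM in Ctrl. Other autophagy genes fell slightly, ATG3, ATG16L1, ATG5 and ATG12 by 0.29, 0.21, 0.18 and 0.17, and the last 3 of these calls were lost on leaving out some single libraries. The collagen-degrading protease CTSK fell by 1.96. Of 25 tested p53 targets, 13 rose and 6 fell. The largest rises were in GDF15, SESN2, BBC3, CDKN1A and GADD45A, of which GDF15 and SESN2 are also on the ATF4 list. The 6 that fell were POLH, CCNG1, DDB2, AEN, TP53I3 and BAX, with log2 fold changes of -1.33, -0.73, -0.64, -0.29, -0.29 and -0.24. The calls of TP53I3 and BAX were lost on leaving out some single libraries.

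Glycolysis and hypoxia genes fell more often than they rose, with 11 higher and 21 lower of 39 and a median of -0.32. LDHA, the muscle-type lactate dehydrogenase, had 811, 807 and 781 CPM in M2, against 2053, 2081 and 2031 CPM in Ctrl (log2 fold change -1.36, SE 0.02, adjusted p = 6.05e-09). PKM and GAPDH of the same pathway fell by 0.57 and 0.50. CA9, a carbonic anhydrase widely used as a hypoxia marker, had 0.0271, 0.0355 and 0.0715 CPM in M2 and 0.776, 0.569 and 0.75 CPM in Ctrl (log2 fold change -3.92, adjusted p = 1.82e-05), below 1 CPM in both groups. The 3 members that rose most were NDRG1, EPAS1 and SLC2A3, by 2.91, 2.39 and 2.2. NDRG1, also driven by cell stress, had 404, 444 and 432 CPM in M2 and 60.7, 52.4 and 56.7 CPM in Ctrl. EPAS1, the hypoxia factor HIF-2 alpha, had 621, 692 and 693 CPM in M2 and 130, 128 and 126 CPM in Ctrl.

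Cholesterol synthesis and uptake genes had 5 higher and 18 lower of 28, 2 and 8 by at least 2-fold, with a median of -0.72. HSD17B7 and DHCR7 of the synthesis pathway fell by 2.23 and 2.01, DHCR7 with 21.7, 15.8 and 19.5 CPM in M2, against 94.9, 63.8 and 71.8 CPM in Ctrl. Among the members that rose were ABCA1 and NPC1. ABCA1, which exports cholesterol, had 218, 218 and 238 CPM in M2 and 23.1, 19.5 and 17.6 CPM in Ctrl (log2 fold change 3.48), and NPC1, which moves cholesterol out of lysosomes, had 280, 285 and 281 CPM in M2 and 85.8, 62.7 and 63.3 CPM in Ctrl (log2 fold change 1.99). NPC2, which acts with NPC1 and is on the lysosome list, fell by 0.32 on the log2 scale. Fatty acid genes had 8 higher and 15 lower of 28 with a median of -0.21, and the desaturase SCD5 fell by 1.65.

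Nuclear genes of the respiratory complexes and the TCA cycle had 3 higher and 25 lower of 46, none of them by 2-fold, and a median of -0.27. SDHA of complex II had 52.8, 53.3 and 54.5 CPM in M2 and 107, 96.8 and 107 CPM in Ctrl (log2 fold change -0.95), and NDUFA9 of complex I fell by 0.91. The members that rose were NDUFV1, COX5B and UQCRC1, by 0.29, 0.26 and 0.19; 1 member was called higher without Ctrl replicate 1. Mitochondrially encoded mRNAs were called lower in 11 of 12, by at least 2-fold in all 11, but this rested on Ctrl replicate 1. MT-ATP6 had 2.01, 1.67 and 2.4 CPM in M2 and 27.9, 3.05 and 2.94 CPM in Ctrl (log2 fold change -2.51, SE 1.07, adjusted p = 0.00353), and MT-ND4 had 14.5, 12 and 13.8 CPM in M2 and 113, 15.1 and 13.4 CPM in Ctrl. The list took 0.00403%, 0.00362% and 0.00401% of reads in M2 and 0.0333%, 0.00485% and 0.0043% in Ctrl, so only Ctrl replicate 1 was far from the others. Without that library 5 members were called lower, and without M2 replicate 2, 8 were. Cytosolic ribosomal proteins had 29 higher and 8 lower of 61, with a median of 0.22. Their share of reads was 2.32%, 2.37% and 2.31% in M2 and 1.8%, 2.19% and 2.31% in Ctrl, again lowest in Ctrl replicate 1 and equal in Ctrl replicate 3 and M2 replicate 3. Without Ctrl replicate 1 the calls were 24 higher and 11 lower. Ribosomal protein genes have many near-identical pseudogenes, so their counts are uncertain.

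**Figure D4:**
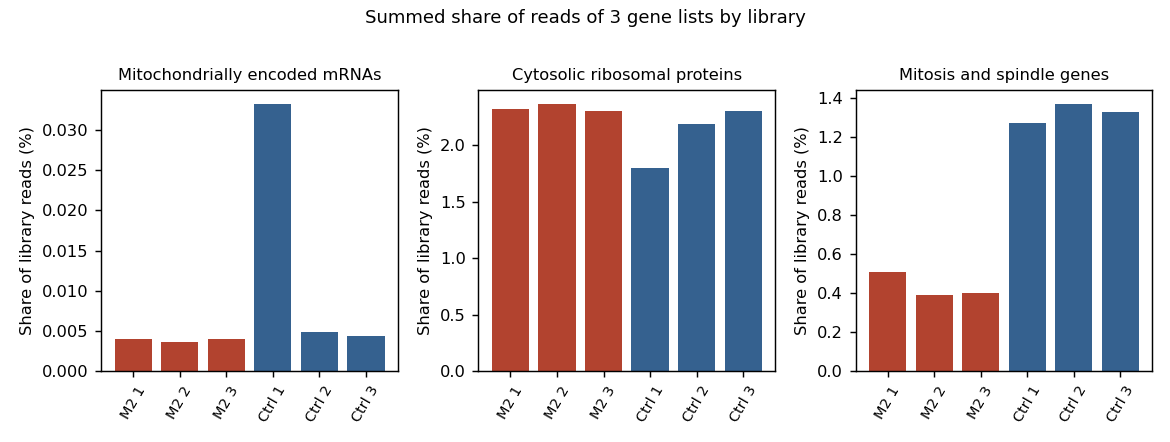
Bars from 0 give the share of all reads, in %, that fell on mitochondrially encoded mRNAs, cytosolic ribosomal proteins, and mitosis and spindle genes in M2 replicates 1 to 3 (red) and Ctrl replicates 1 to 3 (blue). Ctrl replicate 1 stands alone at 0.0333% for mitochondrial mRNAs, while the mitosis share is 0.388% to 0.509% in M2 and 1.27% to 1.37% in Ctrl.

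Proliferation genes were lower in M2. All 40 mitosis and spindle genes were tested, and 40 fell, 35 of them by at least 2-fold, with a median of -1.58, against 32.4% of all genes called lower. They took 0.509%, 0.388% and 0.399% of reads in M2, against 1.27%, 1.37% and 1.33% in Ctrl. KIF20A, a kinesin needed for cytokinesis, had 43.6, 27.4 and 28.6 CPM in M2 and 365, 345 and 345 CPM in Ctrl (log2 fold change -3.40, SE 0.22, adjusted p = 5.38e-09). CDC20, the activator of the anaphase-promoting complex, had 105, 89.1 and 85.7 CPM in M2 and 512, 520 and 551 CPM in Ctrl (log2 fold change -2.50). ANLN, a scaffold of the contractile ring, had 237, 187 and 190 CPM in M2 and 1210, 1134 and 1089 CPM in Ctrl (log2 fold change -2.48). M2 replicate 1 was the highest M2 library in these 3 genes and still lay below every Ctrl library. MKI67, a marker of cycling cells, had 232, 151 and 177 CPM in M2 and 350, 702 and 617 CPM in Ctrl (log2 fold change -1.57, SE 0.36), with Ctrl replicate 1 again apart from its group. Without Ctrl replicate 1 the count was again 40 of 40, and no mitosis gene was higher.

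DNA replication genes had 1 higher and 33 lower of 37, 0 and 22 by at least 2-fold, with a median of -1.06. LIG1, the DNA ligase of lagging-strand synthesis, had 17.3, 17.5 and 17.1 CPM in M2, against 96.9, 92.1 and 97.7 CPM in Ctrl (log2 fold change -2.47). The transcription factor E2F2 and the origin factor MCM10 fell by 2.73 and 2.29. Nucleotide synthesis enzymes had 5 higher and 15 lower of 26, among them the ribonucleotide reductase subunit RRM1, which fell by 1.58. G1 cyclins and inhibitors of cyclin-dependent kinases moved both ways, with 6 higher and 9 lower of 20. CDKN1A, the inhibitor p21, had 23.2, 24.2 and 24.6 CPM in M2 and 2.9, 3.48 and 3.81 CPM in Ctrl (log2 fold change 2.83). CCND2, the cyclin D2 gene, had 149, 178 and 175 CPM in M2 and 16.4, 14.3 and 12.1 CPM in Ctrl (log2 fold change 3.54), while CCND3 fell by 1.78. CDKN2C, the inhibitor p18, had 7.43, 5.82 and 6.8 CPM in M2 and 101, 88.5 and 92.2 CPM in Ctrl (log2 fold change -3.80).

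Genes switched off were taken as those called, with a mean of at least 1 CPM in Ctrl and a log2 fold change of -3 or lower in M2. There were 37 (0.263% of genes tested), 31 of them protein coding and 5 long noncoding. The rule sets no upper limit on the level in M2, so a gene named switched off may still be clearly expressed there. RGS4, which speeds the shutdown of G protein signals, stood at 0.814, 0.639 and 0.858 CPM in M2, against 71.5, 62.6 and 59.5 CPM in Ctrl. The log2 fold change was -6.38 (SE 0.14, adjusted p = 7.3e-14). Of 12 tested regulators of G protein signalling 2 rose and 7 fell, with a median of -0.37, and RGS4 alone fell by at least 2-fold. CAVIN2, a coat protein of caveolae, had 0.515, 0.568 and 0.393 CPM in M2 and 16.5, 16.1 and 15.4 CPM in Ctrl (log2 fold change -5.01). BDKRB1, a bradykinin receptor, had 0.542, 0.284 and 0.465 CPM in M2 and 11.5, 9.68 and 10 CPM in Ctrl (log2 fold change -4.55). All 3 genes remained detectable in M2, with no overlap between groups.

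Genes with high Ctrl levels were also among the 37. SFRP1, a secreted Wnt inhibitor, had 118, 111 and 114 CPM in M2, against 1179, 945 and 924 CPM in Ctrl (log2 fold change -3.15). ARHGDIB, a GTPase regulator best known from blood cells, had 4.1, 2.98 and 3 CPM in M2 and 35.5, 39.6 and 39.7 CPM in Ctrl (log2 fold change -3.49). HAS3, a hyaluronan synthase, had 3.85, 4.29 and 3.86 CPM in M2 and 38.2, 29.5 and 29.6 CPM in Ctrl (log2 fold change -3.02) and overlaps CHTF8. PSG4, a pregnancy-specific glycoprotein, fell by 4.23, with counts that are uncertain because its relatives are nearly identical. At the low end LRRTM2, a synaptic adhesion protein, had 8 reads in M2 and 322 in Ctrl, and it overlaps CTNNA1. The receptor gene SIRPB1 had 9 reads in M2 and 283 in Ctrl, and the protocadherin gene PCDH18 had 12 in M2 and 408 in Ctrl. KLF17, a transcription factor, had 6 reads in M2 and 159 in Ctrl. The diffuse reads of M2 replicate 2 reach 0.286 CPM, so its values for these 4 genes lie within the range such reads span. Without M2 replicate 2 there were 37 genes switched off, and without Ctrl replicate 1 there were 33.

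Genes switched on, called with at least 1 CPM in M2 and a log2 fold change of 3 or higher, numbered 124 (0.88%), 100 protein coding and 15 long noncoding. This rule sets no upper limit on the level in Ctrl, where some of these genes were already clearly expressed. C5AR1, the receptor for complement fragment C5a, had 31.1, 42.3 and 40.6 CPM in M2, against 0.0685, 0.067 and 0.156 CPM in Ctrl (log2 fold change 8.59). IL1RL1, the receptor for interleukin 33, had 89.1, 104 and 94 CPM in M2 and 0.548, 0.536 and 0.625 CPM in Ctrl (log2 fold change 7.38). NAMPT, an enzyme of NAD salvage, had 806, 760 and 760 CPM in M2 and 65.9, 62.6 and 59.7 CPM in Ctrl (log2 fold change 3.63). ERRFI1, a feedback inhibitor of the EGF receptor, rose by 3.09, with 1106, 1027 and 1059 CPM in M2 and 126, 129 and 120 CPM in Ctrl. Several genes had almost no reads in Ctrl. KLHDC7B, a kelch-domain protein, had 1163 reads in M2 and 3 in Ctrl, a ratio of 440 (95% interval 150 to 2138). S100P, a calcium-binding protein, had 268 reads in M2 and 1 in Ctrl, a ratio of 304 (54.2 to 12064), and the fucosyltransferase gene FUT1 had 486 in M2 and 3 in Ctrl, a ratio of 184 (62.6 to 895). LCN1, a lipocalin, had 130 reads in M2 and 0 in Ctrl, and was at least 49.2-fold higher when 3 reads are allowed over the Ctrl group. Ranked by the difference in CPM, which favours long genes, the cytoskeletal regulator RND3 was among the genes with the largest rises, at 2035, 2001 and 2006 CPM in M2 and 398, 413 and 382 CPM in Ctrl, and CD44, the hyaluronan receptor, and HSPA8 were among the largest falls. CD44 had 3002, 2914 and 2880 CPM in M2 and 5320, 4051 and 3927 CPM in Ctrl (log2 fold change -0.60).

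**Figure D5:**
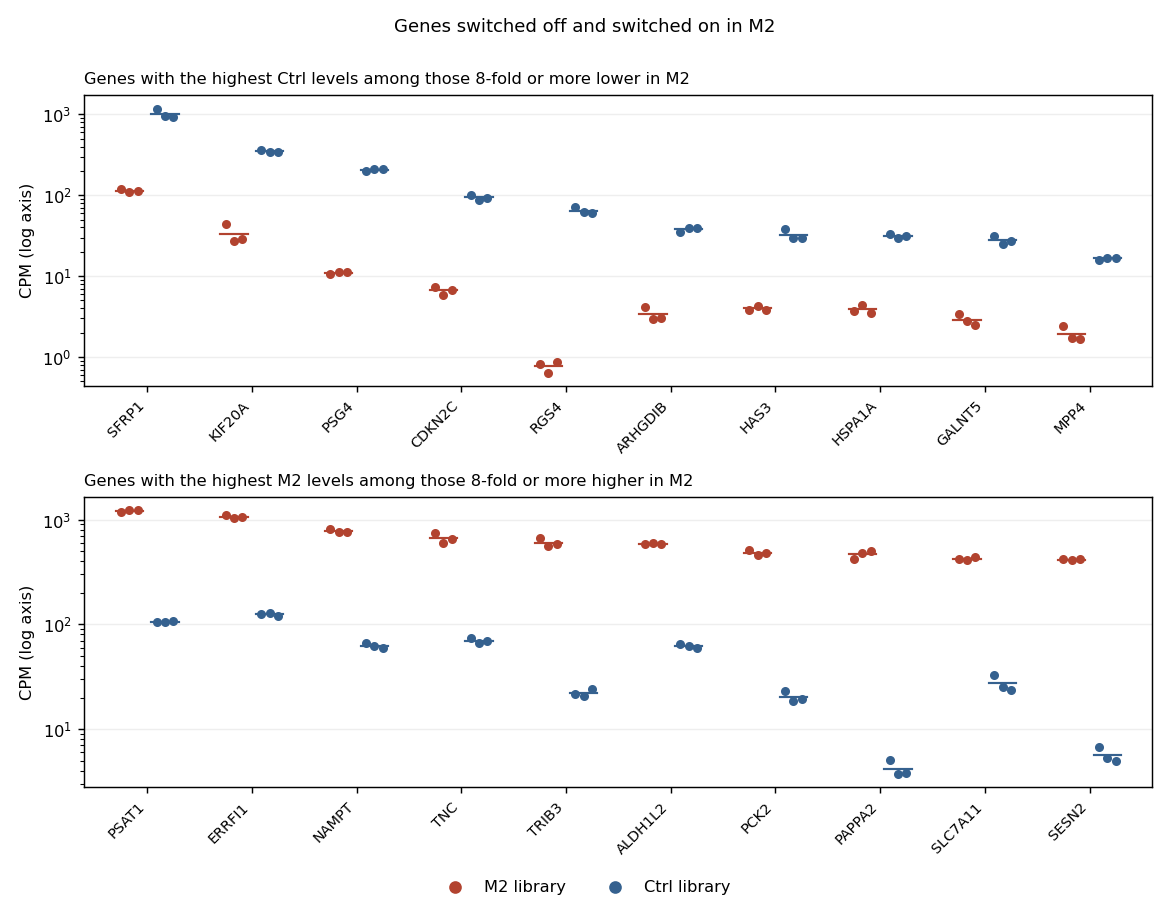
Each point is a library, with M2 (red) left of Ctrl (blue), bars at the mean of 3, and CPM on a log axis, for the 10 genes with the highest Ctrl level among those switched off (upper panel) and the 10 with the highest M2 level among those switched on (lower panel). RGS4 lies below 1 CPM in all M2 libraries and at 59.5 to 71.5 CPM in Ctrl, and SESN2 and PAPPA2 show the reverse order of groups.

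Genes of the NF-kB pathway rose in 22 of 26 and fell in 2, with 12 and 0 of at least 2-fold and a median of 0.85. RELB, a subunit of the non-canonical arm, had 42.6, 41.9 and 40.3 CPM in M2, against 6.42, 5.79 and 6.16 CPM in Ctrl (log2 fold change 2.76), and NFKB2 rose by 2.02. Cytokine, chemokine and prostaglandin genes had 15 higher and 4 lower of 25. IL1B, which encodes interleukin 1 beta, had 108, 114 and 101 CPM in M2 and 4.29, 3.42 and 3.97 CPM in Ctrl (log2 fold change 4.78, SE 0.11, adjusted p = 2.55e-14). IL6 had 77.4, 70 and 67.5 CPM in M2 and 2.37, 2.98 and 2.91 CPM in Ctrl (log2 fold change 4.72, SE 0.12, adjusted p = 1.67e-13) and overlaps other annotated genes. IL1A and the neutrophil chemokine gene CXCL2 rose by 4.68 and 2.68. CXCL1, a close relative of CXCL2, was lower, with 13.1, 10.7 and 10 CPM in M2 and 24.9, 35.2 and 33.3 CPM in Ctrl (log2 fold change -1.46). CXCL8 had 34.9, 21 and 23.1 CPM in M2 and 18.9, 17.6 and 17.8 CPM in Ctrl and did not pass (log2 fold change 0.55, adjusted p = 0.191), although the groups did not overlap. Interferon-stimulated genes had 17 higher and 9 lower of 42. XAF1 rose by 2.60, and the antiviral genes IFI44 and OAS3 fell by 2.02 and 1.83. MHC class I antigen presentation genes had 8 higher and 6 lower of 20, none higher by 2-fold.

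Of 27 listed interleukin 4 and 13 response genes 16 were tested, and 10 rose and 3 fell. The 10 include IL2RG, which had only 5 reads in M2 and 0 in Ctrl. It was tested because the filter on low counts covered all 12 libraries. CCL26, the chemokine eotaxin 3, had 1.06, 0.709 and 0.608 CPM in M2, against 0.0457, 0.1 and 0 CPM in Ctrl (log2 fold change 3.98, SE 0.46, adjusted p = 4.62e-06). CISH, a feedback inhibitor of STAT signalling, had 0.949, 1.21 and 0.823 CPM in M2 and 0.137, 0.067 and 0.125 CPM in Ctrl (log2 fold change 3.09). Both genes were low, and all M2 libraries were above all Ctrl libraries. IL13RA2, a decoy receptor for interleukin 13, had 224, 270 and 251 CPM in M2 and 49.3, 52.3 and 53.9 CPM in Ctrl (log2 fold change 2.26). The serpins SERPINB4 and SERPINB3, close paralogs that are induced by these interleukins in epithelia, had 54 and 19 reads in M2 and 0 each in Ctrl and were not tested. TGM2 and SOCS1 fell by 0.72 and 0.82.

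Set beside the other conditioned media, M2 differed from M0 in 3553 genes (25.2%; 12.5% higher and 12.7% lower) and from M1 in 4572 genes (32.5%; 16.6% higher and 15.9% lower). These comparisons share the M2 libraries with the one against Ctrl, and all media share the Ctrl libraries. The count against M0 was 1970 on leaving out M2 replicate 2, 1920 on leaving out M2 replicate 3 and 1601 on leaving out M0 replicate 3. Differences between media are given as log2 fold changes. TNC was higher in M2 than in M0 by 1.82 and than in M1 by 1.10. INHBE was higher than in M0 by 1.06 (adjusted p = 0.0002) and stood 0.05 above M1. IGFBP4 was higher by 1.25 than in M0 and by 1.74 than in M1. CCL26 was higher than in M0 by 4.28 and than in M1 by 5.17, while its log2 fold changes of M0 and M1 over Ctrl were -0.30 and -1.19. TENM2, a teneurin adhesion receptor, had 4.26, 2.8 and 2.4 CPM in M2 and 0.662, 0.904 and 0.688 CPM in Ctrl (log2 fold change 2.09, SE 0.28, adjusted p = 1.26e-06), was higher in M2 than in M0 by 2.15 and than in M1 by 3.81, and had log2 fold changes of -0.06 in M0 and -1.72 in M1 over Ctrl. The ganglioside synthase gene ST8SIA1 was higher than in M0 by 1.62 and than in M1 by 3.03.

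Genes lower in M2 than in M0 were BDKRB1, SIRPB1, ARHGDIB, ANGPT1, HGF, MMP3 and STC1, with log2 fold changes of M2 over M0 of -2.19, -3.29, -1.85, -1.80, -1.80, -2.04 and -1.18. For ANGPT1 this call was lost without M0 replicate 3 (adjusted p = 0.0769), and the other 6 calls held without any of the 6 libraries in turn. BDKRB1 and STC1 were also lower in M2 than in M1, with log2 fold changes of -2.68 and -2.75. MMP3 was thus higher in M2 than in Ctrl and lower in M2 than in M0. CXCL8 was lower in M2, with log2 fold changes of -2.11 over M0 and -5.19 over M1. IL1B had -0.01 over M0, which did not pass, and -3.38 over M1, and IL6 had 0.64 over M0 and -1.82 over M1. RGS4 was low in all conditioned media, with log2 fold changes over Ctrl of -6.38 in M2, -5.76 in M0 and -8.27 in M1. The log2 fold change of M2 over M0 was -0.62 for this gene and did not pass (adjusted p = 0.0728), and that of M2 over M1 was 1.90. Of the 37 genes switched off in M2, 14 were also at -3 or lower in M0 and 28 in M1, and 18 of the 37 differed between M2 and M0. Of the 124 switched on, 95 were at 3 or higher in M0 and 104 in M1, and 57 differed between M2 and M0. Over all genes tested, 25.2% differed between M2 and M0. The 37 and the 124 were chosen on the same M2 and Ctrl libraries, so these counts are no independent test. Some calls against M0, such as those of NUPR1, IL1RL1, UNC5B and CAVIN2, were lost on leaving out some single libraries.

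Lineage and adhesion genes moved in both directions. Melanocyte lineage genes, of which 11 of 30 were tested, had 6 higher and 3 lower. MITF, the master regulator of that lineage, was low, at 2.31, 1.95 and 2.22 CPM in M2 and 1.48, 0.737 and 1.28 CPM in Ctrl (log2 fold change 0.86). BCL2A1, a survival gene of the BCL2 family, rose by 2.41 and MC1R, the melanocortin receptor gene, fell by 1.08. Genes of the dedifferentiated state had 10 higher and 11 lower of 27, and the neural crest factor SOX9 fell by 1.88. Adhesion receptors, teneurins and guidance cues had 12 higher and 17 lower of 36. UNC5B, a netrin receptor, had 134, 114 and 124 CPM in M2, against 3.97, 2.81 and 3.88 CPM in Ctrl (log2 fold change 5.11). ICAM1, the leukocyte adhesion receptor, had 61.1, 63.8 and 61.3 CPM in M2 and 17.6, 12.7 and 14.9 CPM in Ctrl (log2 fold change 2.03), and the semaphorin gene SEMA7A fell by 2.00. By gene type, 4175 of 11842 protein-coding genes rose and 4121 fell, and of 579 lincRNA genes 179 rose and 126 fell. Antisense genes had 185 higher and 127 lower of 649, which carries the limit on strand given above.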

How the data were processed

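RNA was measured in 12 samples of MV3 cells, 3 each in M2, M1, M0 and fresh medium, grouped and numbered by the labels. Per the labels' protocols, stranded mRNA libraries gave single reads of 50 nt in 2 runs, and the deposited files do not tell the runs apart. Tools named in the submitters' processing notes are STAR 2.5.4b, Bowtie2 2.2.3, Trimmomatic 0.36, FastQC 0.11.7, and DESeq2 1.20.0 with R 3.3.3 and 3.5.0, and the build is hg38. How reads were counted, with which strand setting and annotation, was not given in the sources used here. Raw read counts for 58288 gene identifiers were deposited by the authors, and the 12 per-sample count files equalled the columns of the joint table. A second table the authors deposited holds variance-stabilized values on a log2-like scale, with 3.22 at a count of 0, and these log2 values were used in 1 alternative test.

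Counts of all 12 libraries entered 1 fit of group means in edgeR 4.0.16 under R 4.3.3 (quasi-likelihood F test, TMM scaling, filterByExpr with minimum count 10 and minimum total 15, Benjamini-Hochberg adjustment over 14088 genes at 0.05). The filter covered all 12 libraries, so a gene with few reads in M2 and Ctrl could be tested through M0 or M1. The common biological coefficient of variation was 0.0831. CPM are TMM-scaled, and SE come from log2 CPM with a prior count of 2. Symbols and coordinates are those of GENCODE release 29 on GRCh38, which matched 58022 identifiers. Replicates differed by more than sampling noise (chi-square per gene of 3.18 to 28.12 between pairs), so none was treated as a second reading of another library. This check cannot show whether they came from separate cultures. Ratios with few reads have exact 95% intervals, and a group with 0 reads was set to 3; both cover counting error only, since reads are not independent molecules. The tests were tried on simulated counts first.

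Named genes were taken from the 10 largest changes in each direction, up to 6 members of each of 43 gene lists and members that moved against their list, the 10 highest genes switched on and off, the 10 largest rises and falls in CPM, the 5 most different from M0 in each direction, and TNC, TENM2, INHBE, RGS4, SESN2, CHAC1, IL6, IL1B, CXCL8 and CCL26. The members and lists were chosen with earlier results of these data known. Alternatives were other scalings (DESeq2-type size factors, library totals), no filter or a filter of 1 CPM, the 6 libraries alone, the replicate number as a block, DESeq2 1.42.0, limma 3.58.1 on the deposited log2 values, and each library left out.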

Additional observations from a re-analysis of the deposited data

How the results depend on the processing

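In M2 against Ctrl 8708 (filter of 1 CPM) to 9488 genes (no filter on low counts) were called with all libraries, and 8593 to 9063 with a library left out. Calls of at least 2-fold ran from 2012 (limma on the deposited log2 values) to 3297 (no filter on low counts). The split was 4643 higher and 4704 lower with DESeq2-type size factors and 4484 and 4854 with library totals. None of 449 named genes changed direction, and 0 to 22 lost their call in a given alternative. Lists moved by more than 1.5 times in few cases. With DESeq2 1 mitochondrially encoded mRNA was lower and with limma 7, against 11. With the 6 libraries alone 1 gene of the FOXO list was lower, against 0. Limma on the compressed log2 values left 11 genes switched off and 68 switched on. The cause of these shifts was not tested.

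Leaving out a library gave 3 to 5 MAPK genes lower, 0 to 1 ATF4 genes lower, 3 to 7 collagen-modifying enzymes higher, 2 to 5 integrins higher, 1 to 3 respiratory genes higher, 5 to 12 mitochondrially encoded mRNAs lower and 1 to 2 regulators of G protein signalling higher. For M2 against M0 the count ran from 536 to 3911, where 536 came from leaving out both M2 replicate 2 and M0 replicate 3, an alternative chosen after seeing the data.

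With the replicate number as a block, 9439 genes were called in M2 against Ctrl, 3714 in M2 against M0 and 4752 in M2 against M1. No pairing by number was seen, since same-numbered M2 and Ctrl libraries had deviations correlated at -0.041 to 0.026. This check cannot show whether samples of a number were handled together. With 3 libraries per group and 1 of them apart in Ctrl, genes near the floor of 0.0699 to 0.1074 CPM are the least certain.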
